A study of Mus musculus with 4 samples.

Results

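Snai1, Snai2 and Snai3 (the Snail family), Zeb1 and Zeb2, and Twist1 and Twist2 encode transcription factors of the epithelial-mesenchymal transition, and Esrp1 and Esrp2 encode the splicing regulators that mark the epithelial state. Their transcripts were followed in FACS-sorted skin cells from young mice after induction of the microRNA miR-203. All probe sets annotated to exactly 1 of these genes were taken, which gave 19 probe sets for 9 genes, out of 18193 genes named on the array. The genes were chosen by name: Snai2 and Zeb2 have been published as miR-203 targets in other systems, and the rest are their relatives or epithelial counterparts.

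The induced animals carried K14-rtTA, TRE-miR-203 and K14-H2BGFP, that is, the doxycycline-dependent activator rtTA under the keratin 14 promoter, a miR-203 transgene that answers to it, and a nuclear green fluorescent protein. Their control littermates, labelled WT, carried TRE-miR-203 and K14-H2BGFP but no rtTA. Effects of rtTA itself and of miR-203 cannot be told apart in this comparison. All pups were of the FVB background and were sampled at postnatal day 4, 24 h after doxycycline, and there were 2 induced and 2 control arrays, labelled as biological replicates. The keratin 14 promoter is active in basal keratinocytes and the outer root sheath, so that other cell types in the sort have no known driver of the transgene. The sorting gate is not given in the labels.

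Snail and Zeb proteins are zinc finger repressors that bind E-box sequences in the promoters of cadherin, claudin and other junction genes, and Twist proteins are basic helix-loop-helix factors that bind similar sites with E-protein partners. In epidermis Snai2 is the Snail family gene known from basal keratinocytes, while Zeb and Twist genes are best known from mesenchymal, neural crest-derived and immune cells. Esrp1 and Esrp2 direct epithelial exon choice in transcripts such as Fgfr2 and Cd44, and Zeb proteins are known repressors of Esrp genes.

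A microRNA finds its targets mainly through its seed, bases 2 to 8, and the mature sequences are shown here because the seed defines what an induced miR-203 could recognise. They are the RefSeq entries of build GRCm38.p6, at chr12:112130927-112130948 for the 3p arm and chr12:112130889-112130910 for the 5p arm, both on the plus strand, written 5′ to 3′ with the seed in capitals.
mmu-miR-203-3p: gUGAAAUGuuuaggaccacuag
mmu-miR-203-5p: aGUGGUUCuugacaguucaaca
The letters that pair with the whole 3p seed are CAUUUCA in a target transcript, and those for the 5p seed are GAACCAC. The 3′ untranslated regions of the 9 genes were not analysed here.

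Values are log2 RMA values, the deposited array signal on a log2 scale, so that a difference of 1 is a doubling. The 4 array medians lay between 4.74 and 4.79, and all values between 2.09 and 14.6. Probe sets differ in how brightly they report the same amount of RNA, so differences were taken between arrays within a probe set. Statements on the brightness of probe sets, and sums over markers, describe array signal and not amounts of RNA. A probe set was kept for testing when its mean over the 4 arrays was at or above the 40th percentile of all probe sets, a level of 4.17. Induced replicate 1 stood apart in sex-linked transcripts, with Eif2s3y of the Y chromosome at 9.38 there, against 2.72 in induced replicate 2 and 2.82 and 2.52 in the controls. Xist of the X chromosome was at 5.86 there, against 11.19 in induced replicate 2 and 10.57 and 10.80 in the controls. Sex-linked signal was thus not balanced between the groups. Keratin genes of keratinocytes were near the top of the scale on all arrays, such as Krt14 at 14.01 and 13.96 in induced arrays and 14.10 and 14.13 in controls.

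Of the 9 genes, the 6 that could be tested did not differ past the threshold between induced and control arrays. Snai1, Zeb1 and Twist1 had no probe set that passed the filter, so they are only described. Of the 19 probe sets 9 passed the filter, and they represent Snai2, Snai3, Zeb2, Twist2, Esrp1 and Esrp2. In limma 0 of these 9 had an adjusted p under 0.05, as did 0% of the 27022 kept probe sets, and 0 of the 9 had an unadjusted p under 0.05, against 10.1% of all kept ones. Their adjusted p values ran from 0.798 to 0.983. The absolute difference was at most 0.17, and the 95% intervals together spanned -0.46 to 0.59. Both induced arrays lay on one side of both controls for 2 of the 9, against 39.1% of all kept probe sets. The genes split into those with bright probe sets on every array, Snai2, Esrp1 and Esrp2, and those whose probe sets lay near or below the filter level, namely Snai1, Zeb1, Zeb2, Twist1 and Twist2, with Snai3 between them.

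**Figure D1:**
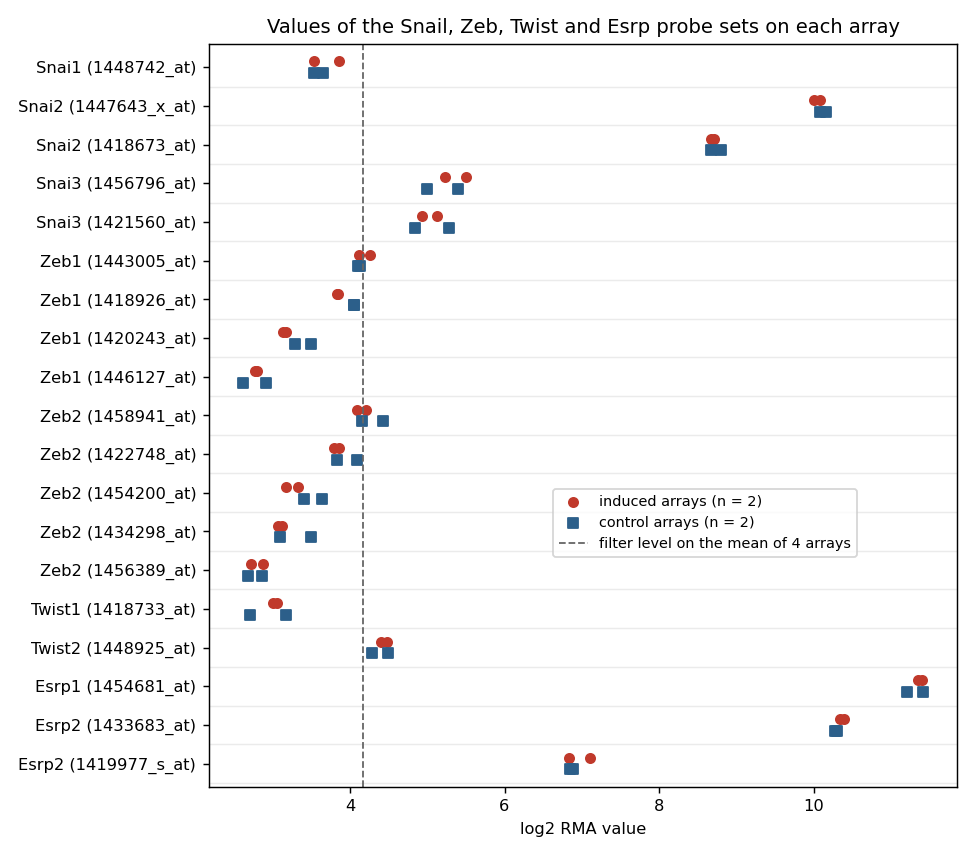
Log2 RMA value (x axis) of each of the 19 probe sets (rows) on the 2 induced arrays (circles) and the 2 control arrays (squares), with the filter level of 4.17 as a dashed line. Snai2, Esrp1 and Esrp2 lie far to the right of the line, Zeb1, Snai1 and Twist1 to its left apart from induced replicate 2 in 1 Zeb1 probe set, and for most probe sets the circles and squares overlap.

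Snai2, which encodes the zinc finger repressor Slug, was the brightest of the Snail family probe sets. Probe set 1447643_x_at had values of 10.00 and 10.09 in induced arrays, against 10.09 and 10.17 in controls, at the 95.3rd percentile of all probe sets. Both induced arrays lay below both controls, by a gap that is not visible at 2 decimals. The difference was -0.08 ± 0.10 (SE, limma, n = 2 and 2), with a 95% interval of -0.33 to 0.16 and an adjusted p of 0.863. On the fold scale the interval ran from 0.80 to 1.12. Probe sets with this suffix can share sequence with other transcripts. The second one, 1418673_at, had values of 8.71 and 8.67 in induced arrays, against 8.80 and 8.68 in controls. These overlapped, the difference being -0.05 ± 0.10 with a 95% interval of -0.30 to 0.20 (limma adjusted p = 0.938). The difference in Snai2 messenger RNA was within the error of the fit in both probe sets, and the lower ends of their intervals stood at folds of 0.80 and 0.81. Protein was not measured.

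Snai1, the gene of the founding family member Snail, was represented by 1 dim probe set, 1448742_at. It had values of 3.54 and 3.85 in induced arrays, against 3.64 and 3.54 in controls. The groups overlapped, with induced replicate 2 the highest array, and the mean was under the filter level, at the 28.4th percentile. The difference from a fit without the filter was 0.10, with a 95% interval of -0.23 to 0.44. At that level the array can report little of the gene, and no fold is given for probe sets below the filter.

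Snai3, the least studied Snail gene, had 2 probe sets of middling brightness. Probe set 1456796_at had values of 5.51 and 5.22 in induced arrays, against 5.001 and 5.39 in controls, and 1421560_at had 4.93 and 5.12 in induced arrays, against 4.84 and 5.28 in controls. The groups overlapped in both, and the 2 probe sets had differences of opposite sign, 0.17 ± 0.17 (SE) and -0.03 ± 0.17. These were the widest errors among the tested probe sets, with limma adjusted p values of 0.822 and 0.983. In 1421560_at the 2 control arrays were further apart than any induced array was from any control.

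Zeb1, a zinc finger and homeodomain repressor, had 4 probe sets, none of which reached the filter level. The brightest, 1443005_at, had values of 4.11 and 4.26 in induced arrays, against 4.13 and 4.10 in controls, and these overlapped. Probe set 1418926_at had values of 3.83 and 3.84 in induced arrays, against 4.05 and 4.05 in controls. Here the arrays of a group were almost equal and both induced arrays were lower, by 0.22 (95% interval -0.46 to 0.02 in the fit without the filter). Probe set 1420243_at had values of 3.13 and 3.18 in induced arrays, against 3.29 and 3.49 in controls, again with both induced arrays lower. The remaining probe set, 1446127_at, had values of 2.77 and 2.80 in induced arrays, lying between the 2.61 and 2.91 of the controls. In the fit without the filter the differences of the 4 ran from -0.24 to 0.07, with 2 lower and 2 higher means, so that the probe sets of Zeb1 gave no common direction.

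Zeb2, the other published target among the repressors, had 5 probe sets, of which 1 just passed the filter. That probe set, 1458941_at, had values of 4.20 and 4.09 in induced arrays, against 4.15 and 4.43 in controls. The groups overlapped, control replicate 2 being the highest array, and the difference was -0.14 ± 0.13 (SE), with a 95% interval of -0.46 to 0.18 and a limma adjusted p of 0.798. Without control replicate 2 the difference was 0.0015, so that this array decided its direction. Among the 4 dimmer ones, 1454200_at had values of 3.17 and 3.33 in induced arrays, against 3.41 and 3.63 in controls, with both induced arrays lower, by 0.27 (95% interval -0.58 to 0.04). Probe set 1422748_at had values of 3.80 and 3.86 in induced arrays, against 4.09 and 3.83 in controls, and 1434298_at had 3.07 and 3.12 in induced arrays, against 3.09 and 3.49 in controls. In both of these the groups overlapped. The dimmest, 1456389_at, had values of 2.87 and 2.72 in induced arrays, against 2.67 and 2.86 in controls. The mean was thus lower in induced arrays for 4 of the 5 Zeb2 probe sets, the exception being the dimmest. Of the 5, 4 were under the filter level, and none had an unadjusted p under 0.05.

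Twist1 and Twist2, which encode helix-loop-helix factors of mesenchyme and dermis, had 1 probe set each. Twist1 (1418733_at) had values of 3.06 and 2.997 in induced arrays, against 2.70 and 3.17 in controls, at the 10.4th percentile. Both induced arrays lay between the controls. Twist2 (1448925_at) had values of 4.47 and 4.39 in induced arrays, against 4.29 and 4.50 in controls, again with both induced arrays between the controls. Its difference was 0.04 ± 0.11 (SE), with a 95% interval of -0.24 to 0.32 (limma adjusted p = 0.959).

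The epithelial counterparts were bright on every array. Esrp1 (1454681_at) had values of 11.41 and 11.36 in induced arrays, against 11.21 and 11.42 in controls, at the 98.1st percentile. The groups overlapped, control replicate 1 being the lowest array, and the difference was 0.07 ± 0.11 (SE), with a 95% interval of -0.21 to 0.34 (limma adjusted p = 0.922). Esrp2 had its brighter probe set, 1433683_at, at 10.34 and 10.39 in induced arrays, against 10.30 and 10.28 in controls. Both induced arrays were higher than both controls, by 0.08 ± 0.09 with a 95% interval of -0.15 to 0.31 (limma adjusted p = 0.863). The second Esrp2 probe set, 1419977_s_at, had 7.10 and 6.83 in induced arrays, against 6.89 and 6.85 in controls, and these overlapped.

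**Figure D2:**
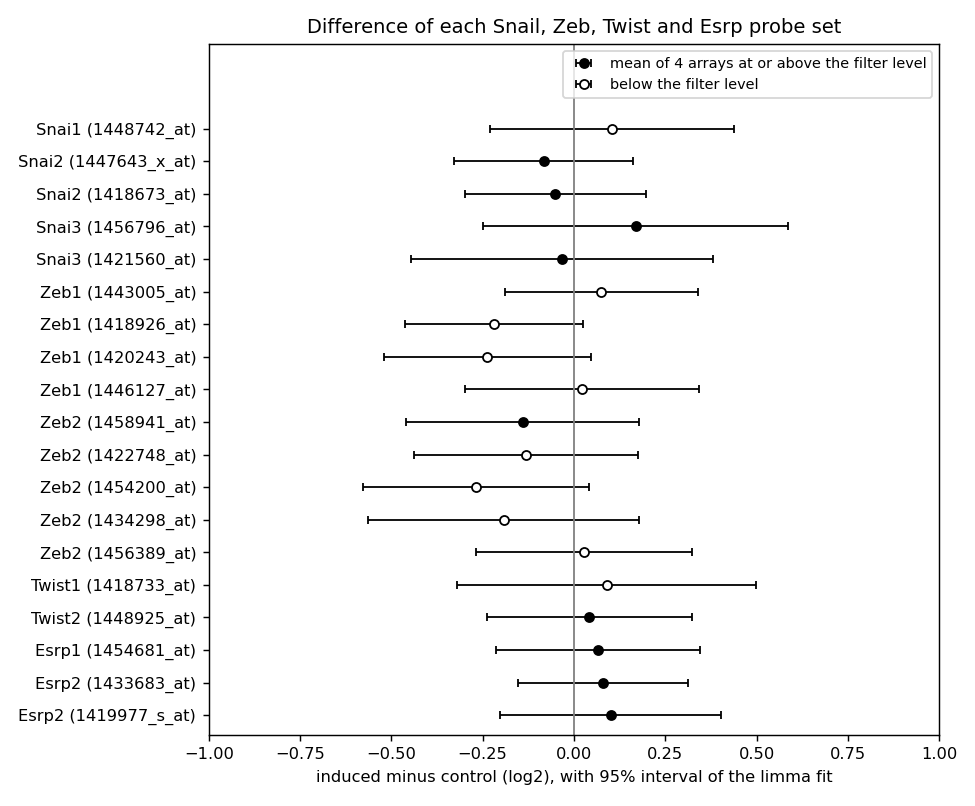
Difference of induced minus control means (x axis, log2) with its 95% interval for each of the 19 probe sets (rows). Filled points passed the filter, open points did not and come from the fit without it. All 19 intervals include 0, and the largest difference is the -0.27 of a dim Zeb2 probe set.

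Over all 19 probe sets 9 had a lower and 10 a higher mean in the induced arrays. Both induced arrays lay on one side of both controls for 5 of the 19, against 36.3% of all 45037 probe sets. Of these 5, 4 were lower, 3 of them Zeb1 or Zeb2 probe sets below the filter level. The share of lower ones was not counted over all probe sets. Over the 13489 genes with a kept probe set it was 19.3%, and no direction is read from the 4 of 19. When induced replicate 1, which carried the Y-linked signal, was left out, the differences of the brightest probe sets were -0.04 for Snai2, -0.20 for Zeb2, 0.04 for Esrp1 and 0.11 for Esrp2. They were 0.26 for Snai1, 0.03 for Snai3, 0.15 for Zeb1, 0.06 for Twist1 and 0.0021 for Twist2. None of the 9 changed sign. Genes with a profile like that of Snai2 or Zeb2 were to be named only if the range over the 4 arrays reached 0.5, and it was 0.16 for Snai2 and 0.34 for Zeb2.

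Other cells of the sort can contribute to these values, and in a bulk sample fewer cells of a type and less RNA per cell cannot be told apart. Melanocytes are known to express Snai2 and Zeb2. All 8 melanocyte markers were kept, and their summed level on the linear scale was 3873 and 5823 in induced arrays, against 4243 and 4413 in controls, induced replicate 2 being the highest. Of these markers 7 had a higher and 1 a lower mean in induced arrays, against 49.6% higher over all kept genes, with a median difference of 0.18. Both induced arrays were above both controls in 2 of the 8, against 20.1% of genes, and below in 1, against 19.3%. Langerhans and other immune cells, which are known to express Zeb2, had 9 of 10 markers kept, with sums of 3909 and 2928 in induced arrays, against 3581 and 3059 in controls. Dermal fibroblasts, known for Twist and Zeb1 expression, had 6 of 10 markers kept, with sums of 672 and 999 in induced arrays, against 861 and 857 in controls. The fibroblast markers Col1a1, Pdgfra, Lum and Dpt were under the filter level. In all 3 lists the ranges of the groups overlapped, and their part in the values of the 9 genes was not tested. Keratinocyte markers had 9 of 10 members kept, with sums of 75656 and 71503 in induced arrays, both below the 81177 and 80981 of the controls. In 8 of these 9 both induced arrays were below both controls, against 19.3% of the 13489 genes with a kept probe set, with a median difference of -0.13 and 0 past the threshold. The lowest were the basal layer genes Col17a1 at -0.71 ± 0.11, Krt15 at -0.33 ± 0.10 and Trp63 at -0.30 ± 0.09, although Trp63 also has dimmer probe sets with higher means in induced arrays, by 0.10 and 0.46. These 3 genes were named after their values were seen. Of 7 endothelial markers 5 were under the filter level. Schwann cell markers had 3 of 6 members kept, with sums of 1366 and 1351 in induced arrays, both above the 976 and 1201 of the controls. Of these Erbb3 differed by 0.38 ± 0.14, Sox10, also a melanocyte marker, by -0.06 and S100b by 0.003. Mural and smooth muscle markers had 3 of 6 kept, with sums of 133 and 158 in induced arrays, against 153 and 158 in controls. The part of these lists was not tested either.

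The genes that these factors act on were described through lists chosen by function, with earlier results of these data known. The shares given for them describe the lists and are not an independent test. Among 6 such lists, epithelial junction genes had the highest median difference. They are the cadherins, claudins, tight junction and polarity genes that Snail and Zeb proteins are known to repress. Of 14 kept members 13 had a higher mean in induced arrays, against 49.6% of the 13489 genes. In 11 of the 14 both induced arrays were above both controls, against 20.1% of genes, and in 1 both were below, against 19.3%. The median difference was 0.19, against -0.00 over all genes. None had an adjusted p under 0.05, and 4 had an unadjusted p under 0.05 with a higher mean, against 4.4% of genes. The junction list was not alone in this. In the same limma fit 12 kept mesenchymal genes, described below, held 1 such gene with a higher and 3 with a lower mean. The 9 kept keratinocyte markers held 0 with a higher and 3 with a lower mean. Without induced replicate 1 the mean was higher for 13 of the 14 junction genes. The keratinocyte markers, most of which were lower in the induced arrays, moved alongside these genes in the opposite direction, and their part in the result was not tested.

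Cldn3, a barrier-forming claudin, had values of 7.06 and 7.33 in induced arrays, against 6.43 and 6.41 in controls, a difference of 0.78 ± 0.12 (SE; 1.71-fold, limma adjusted p = 0.193). Its other 3 kept probe sets were higher by 0.48 to 0.59. Marveld2, the tricellular junction protein tricellulin, had 7.15 and 7.41 in induced arrays, against 6.86 and 6.71 in controls (0.50 ± 0.13), and Cldn4 had 10.13 and 10.20 in induced arrays, against 9.71 and 9.83 in controls (0.40 ± 0.10). The fourth gene, Epcam, named after its values were seen, had 11.71 and 11.93 in induced arrays, against 11.37 and 11.52 in controls, but its dimmer probe set differed by -0.04. Cdh1, the E-cadherin gene and the classic target of Snail repression, had 11.90 and 11.96 in induced arrays, against 11.85 and 11.81 in controls (0.10 ± 0.10, limma adjusted p = 0.816). The 1 junction gene with a lower mean was Cdh3, the basal layer P-cadherin, also named after its values were seen, at 6.97 and 7.39 in induced arrays, against 7.64 and 7.39 in controls.

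**Figure D3:**
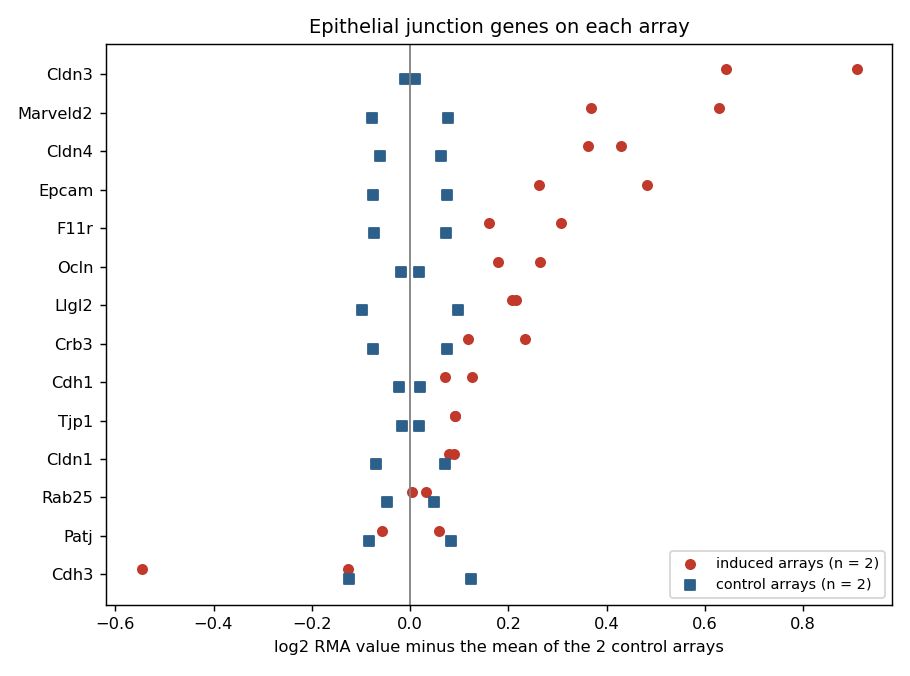
Log2 RMA value minus the mean of the 2 control arrays (x axis) for the 14 kept epithelial junction genes (rows), with induced arrays as circles and control arrays as squares. The induced circles lie right of both control squares in 11 genes, furthest for Cldn3, and left of both in Cdh3.

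The E-box CAGGTG, read on both strands as CAGGTG or CACCTG, is the sequence that Snail and Zeb zinc fingers are known to bind. It was searched in RefSeq promoter windows of 300 bases (250 before to 50 after the start, build GRCm38.p6). It was present in 10 of the 12 junction genes with an entry (83.3%) and in 1 of 8 mesenchymal genes (12.5%), against 22.4% of the 10856 genes with a kept probe set and an entry. The 12 junction genes include Cldn7, which held the motif but was under the filter level, while Cdh1 had no entry. Of the 9 genes themselves, Snai1, Twist1, Twist2 and Zeb2 had an entry, and Snai1 alone held the motif. The junction genes were listed because they are known targets, so their share is a description of the list. Windows of 30 bases are shown for Snai1 and for the junction genes named above, with the motif in capitals, on the strand of the gene, from chr2:167538057-167538086 (plus), chr5:134986233-134986262 (plus), chr5:134946931-134946960 (minus), chr13:100616911-100616940 (minus) and chr17:87635948-87635977 (plus).
Snai1: gcagcccaggcgCACCTGctccggtctcag
Cldn3: caaagccacaggCAGGTGcaggggcagtct
Cldn4: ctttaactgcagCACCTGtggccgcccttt
Marveld2: ccggcggccgcgCAGGTGagtggggccgcg
Epcam: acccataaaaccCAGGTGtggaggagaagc
Cldn4 and Epcam each hold another motif that is not shown. A match is a description of the letters, and binding was not measured.

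Epithelial transcription factors that are known to oppose the Zeb and Snail genes had mostly higher values in induced arrays. Of 9 kept members 7 had both induced arrays above both controls, against 20.1% of genes, and 1 had both below, against 19.3%, with a median difference of 0.11 and 0 members past the threshold. Grhl1, a grainyhead factor of the epidermal barrier, had 10.74 and 10.85 in induced arrays, against 10.47 and 10.64 in controls (0.24 ± 0.11). Ovol1, a zinc finger repressor of Zeb1 in other epithelia, had 9.40 and 9.34 in induced arrays, against 9.22 and 9.10 in controls, and Elf3 differed by 0.22 ± 0.10. The dimmer Ovol1 probe set differed by 0.06 ± 0.12. The gene with both induced arrays below was Grhl2, named after its values were seen, at -0.04 ± 0.09. Its dimmer kept probe sets differed by 0.18, 0.06 and -0.21, with no common direction.

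Genes of the mesenchymal programme, which the Snail, Zeb and Twist factors are known to promote, went both ways. Of 12 kept members 4 had both induced arrays above and 4 both below the controls, against 20.1% and 19.3% of genes, the median difference being 0.07. The matrix metalloproteinase gene Mmp2 had 7.44 and 7.59 in induced arrays, against 7.88 and 8.05 in controls (-0.45 ± 0.11), and Sparc, a matrix glycoprotein gene, had 9.53 and 9.55 in induced arrays, against 10.01 and 9.83 in controls (-0.38 ± 0.11). Tnc, which encodes tenascin C, differed in the other direction by 0.35 ± 0.13. Vim, the intermediate filament gene of mesenchyme, had 10.92 and 10.83 in induced arrays, against 10.79 and 10.81 in controls. Cdh2, the N-cadherin gene, was under the filter level.

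Transcripts of the proteins that work with these factors had a median difference of -0.02. Of 13 kept corepressor and partner genes 0 had both induced arrays above both controls, against 20.1% of genes, and 1 had both below, against 19.3%. This was Tcf4, an E-protein that pairs with Twist, at 8.15 and 8.18 in induced arrays, against 8.46 and 8.63 in controls (-0.38 ± 0.11, limma adjusted p = 0.350). Of its other 4 kept probe sets 1 differed by -0.38 as well, and the rest by -0.09, -0.05 and 0.11. Tcf12, another E-protein, and the corepressor gene Rcor1 were both named after their values were seen. The brightest Tcf12 probe set differed by -0.04 ± 0.13 and the dimmer ones by -0.14, 0.10 and 0.71 ± 0.21, with no common direction. Those of Rcor1 differed by 0.07 ± 0.13, and by 0.22 and 0.26 ± 0.09 in the dimmer ones. Hdac1 and Hdac2, histone deacetylases recruited by Snail, differed by -0.10 ± 0.11 and -0.15 ± 0.12. Among 6 kept genes that control the stability of Snail proteins, Fbxl14, a ubiquitin ligase subunit that acts on Snail factors, had 6.74 and 6.83 in induced arrays, against 6.49 and 6.52 in controls (0.28 ± 0.10, limma adjusted p = 0.434), Fbxw7 differed by 0.23 ± 0.10 and Csnk1e by 0.11 ± 0.14. The other 2 Csnk1e probe sets differed by -0.08 and 0.44.

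The last list held transcripts that Esrp proteins splice, and other splicing factors. Fgfr2, whose epithelial exon is the best known Esrp target, had 8.62 and 8.66 in induced arrays, against 8.58 and 8.62 in controls, the difference being 0.03 ± 0.09 (limma adjusted p = 0.959). Its dimmer kept probe set differed by -0.12. The array summary does not tell its isoforms apart. Of 9 kept members of the list 1 had both induced arrays above, against 20.1% of genes, and 4 had both below, against 19.3%, with a median of -0.02. Rbm47, an RNA-binding protein of epithelia, differed by -0.32 ± 0.14, Rbfox2, a splicing factor with mesenchymal activity, by 0.22 ± 0.10, and Mbnl1 by -0.11 ± 0.10, none of them past the threshold. Other probe sets went the other way, at -0.49 ± 0.13 and -0.09 ± 0.15 for Rbfox2 and at 0.36 ± 0.17 for Mbnl1, so that these 2 genes have no common direction.

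**Figure D4:**
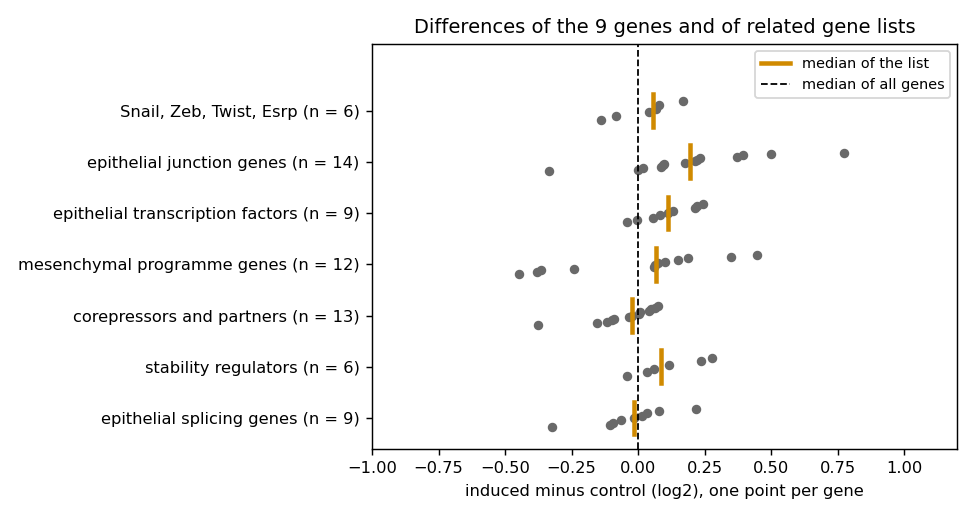
Difference of induced minus control means (x axis, log2) for each kept gene (points) of the Snail, Zeb, Twist and Esrp set and of 6 related lists, with the median of each list as a bar and the median of all genes as a dashed line. The 6 kept genes of the set lie between -0.14 and 0.17, and the junction list has the highest median, 0.19.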

How the data were processed

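Sorted skin cells of 2 induced and 2 control samples were each hybridised to 1 biotin-labelled array. The deposited values are log2 RMA values made by the authors, as the submitters' processing notes name RMA. Its version and chip definition are not given in the sources used here. RMA quantile normalizes the arrays, so a change in total RNA is not seen.

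The 64 control probe sets were left out. Of the other 45037, 34945 carried a single gene in the platform annotation, and 34741 of these were matched by gene identifier to the RefSeq table of GRCm38, which gave current symbols. Kept probe sets (27022) were compared between groups with limma (version 3.58.1, R version 4.3.3), using lmFit and eBayes. P-values were two-sided and adjusted by Benjamini-Hochberg over all kept probe sets, with a threshold of 0.05. The fit had 2 residual and 3.82 prior degrees of freedom and a prior SD of 0.115. Errors are standard errors of that fit, and the small number of arrays limits the precision. An exact permutation test of 2 against 2 cannot go below p = 0.333. The labels call the samples biological replicates without naming animals or litters. The test was also run on simulated data with planted changes. Their noise was normal, independent and drawn from the variance prior of the same fit, without array effects. That run therefore cannot say how well the test finds changes in these arrays.

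A list gene is its brightest kept probe set. The named genes are the 9, the 3 of each list with the largest absolute statistic, and Cdh1, Vim and Fgfr2. Other genes named beyond this rule were chosen after their values were seen, or are markers or genes under the filter level. Genes, lists and markers were chosen with earlier results of these data known. Although the controls were littermates, same-numbered replicates were not treated as paired, since the labels do not say that a replicate number marks a litter. Alternatives were other filters and scalings, a robust variance prior, replicate blocks and leaving out each array.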

Additional observations from a re-analysis of the deposited data

Results flagged for a closer look

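Eif2s3y is a Y-linked gene that is in none of the gene lists. It had a log2 value of 9.38 in induced replicate 1, above induced replicate 2 (2.72) and both control arrays (2.82 and 2.52). The 9 genes are given with and without this array in the results.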

How the results depend on the processing

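Of 69 recomputed differences of the 9 genes 63 kept their sign. The 6 that changed sign did so when 1 array was left out: without control replicate 1 Snai3 (range without each array -0.027 to 0.36), Twist1 (-0.15 to 0.33), Twist2 (-0.063 to 0.15) and Esrp1 (-0.040 to 0.17), without control replicate 2 Zeb2 (-0.28 to 0.0015), and without induced replicate 2 Snai1 (-0.053 to 0.26). The cause was not tested. None of these genes passed the threshold in any setting run. The count of the 9 genes' probe sets with separated groups was 5 without the filter, where 19 in place of 9 entered. Over all probe sets 126 were called with a trended, robust variance prior and 0 to 6 when an array was left out, 6 of them without induced replicate 2, none from the 9 genes. The unadjusted count was 2728 in the fit reported and 2872 with that prior. A replicate block gave 0 calls, as did crossed pairing of the replicate numbers, tried after seeing the data because the replicate differences of the groups correlated at -0.10. Junction genes with a higher mean numbered 11 to 13 of 14 under the 7 alternatives run for them, both rescalings, the mean over probe sets and leaving out each array, chosen after seeing the data. Probe sets near the filter level limit what can be read for Snai1, Zeb1, Zeb2, Twist1 and Twist2.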
